A study of Mus musculus with 11 samples.

Results

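The IL-1 family genes examined here are 4 cytokines (Il1a, Il1b, Il18 and Il33), 2 inhibitors (Il1rn and Il18bp) and 3 receptors (Il1r1, Il1r2 and Il1rl1). These 9 genes were chosen by symbol, and all 9 were found among the 49315 genes of the table. They were measured by bulk RNA-seq in whole skin from 11 Foxp3-DTR mice on a C57BL/6J background, in which the Foxp3 promoter drives the diphtheria toxin (DT) receptor and DT removes regulatory T cells (Tregs). The PBS group (control) held 2 Treg-sufficient mice, whose harvest day is not given by the sample labels. The EarlyDT group (ΔETreg, 3 mice) received 2 doses of DT on P6 and P8 and was harvested on P9, the LateDT group (ΔLTreg, 3 mice) received 2 doses on P10 and P12 and was harvested on P13, and the FullDT group (ΔTreg, 3 mice) received 4 doses from P6 to P12 and was harvested on P13. All groups carried the DTR allele, each dose was 30 ng per g, and each library came from 1 mouse. ΔTreg and ΔLTreg skin were therefore of the same age, whereas the study describes its controls as age-matched but no harvest day is labelled for these 2 mice. Because the same 2 control mice served comparisons with both ages, age cannot be told apart from treatment there. Nor can it be in comparisons of ΔETreg skin (P9) with ΔLTreg or ΔTreg skin (P13).

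IL-1α and IL-1β signal through IL-1R1, and IL-1Ra, the product of Il1rn, occupies that receptor without starting a signal. IL-1R2 is a decoy that binds IL-1 without signalling, IL-18BP captures IL-18, and ST2, the product of Il1rl1, is the receptor of IL-33. IL-1β and IL-18 are made as inactive precursors that caspase-1 cleaves in inflammasomes, whereas IL-1α and IL-33 are stored in keratinocytes and stromal cells and act as alarmins when cells are damaged. Transcript levels do not report this processing, and counts per gene sum the isoforms of a gene, such as membrane and soluble ST2.

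Total counts per library lay between 23377571 and 34159435. Levels are given as CPM, the count of a gene over the TMM-scaled library size, fold changes (with their standard error, SE) come from edgeR's quasi-likelihood fit across 18375 genes, and a gene was called at an adjusted p under 0.05 (Benjamini-Hochberg over all genes tested). All 9 members passed the expression filter, with at least 18 counts in every library. Foxp3, which marks Tregs, had 14 to 20 counts in control, 10 to 16 in ΔETreg, 13 to 23 in ΔLTreg and 9 to 19 in ΔTreg skin. Summed CPM of neutrophil markers (10 genes) was 13.6 to 14.5 in control, 9.47 to 11.9 in ΔETreg, 17.5 to 18.5 in ΔLTreg and 36.0 to 46.1 in ΔTreg skin, with the defining marker Ly6g at or under 3 counts in every library. Most of this sum came from S100a8 (mean 9.49 CPM in control and 15.3 in ΔTreg skin) and S100a9 (1.91 and 9.98), so it does not count neutrophils. The corresponding ranges for monocyte and macrophage markers (11 genes) were 211 to 274, 154 to 232, 113 to 306 and 605 to 788. T cell markers (9 genes) summed to 13.7 to 16.7, 14.3 to 16.8, 16.7 to 20.4 and 61.5 to 78.2, and Cd8a and Cd8b1 were at or under 3 counts in every library outside the ΔTreg group. Keratinocyte markers (8 genes) summed to 14918 to 15455, 13002 to 15786, 15471 to 15744 and 15472 to 15931, so that control mice lay just below ΔLTreg and ΔTreg mice. Fibroblast markers (8 genes) summed to 18172 to 21633, 13710 to 24333, 8430 to 18402 and 9945 to 11272, with ΔLTreg mice on both sides of the ΔTreg mice. The part that these changes in cell markers play in the results was not tested, and in bulk tissue more cells of a type cannot be told apart from more RNA per cell.

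Levels of different members were compared as CPM per kb of exonic length, the merged exons of all annotated isoforms. The order rests on this length, which was 1.031 kb for Il18 and 6.363 kb for Il1r1. In plain CPM, the control means were 47.3 for Il1r1, 37.1 for Il1rn, 15.2 for Il1r2 and 9.43 for Il18. Per kb, the highest in control skin was Il18, at 9.14 ± 0.472 CPM per kb (SD, n = 2). It was followed by the receptor genes Il1r2 (7.99 ± 0.0748) and Il1r1 (7.43 ± 0.604) and the antagonist gene Il1rn (6.71 ± 0.957). The ranges of the control mice separated Il18 from Il1r2 and Il1r2 from Il1r1, and overlapped between Il1r1 and Il1rn. Il1a stood at 2.66 ± 0.572, Il33 at 1.02 ± 0.138, Il18bp at 0.705 ± 0.197, Il1rl1 at 0.535 ± 0.242 and Il1b at 0.473 ± 0.137 CPM per kb, and the last 3 overlapped between neighbours. In ΔTreg skin Il1r1 stood first at 9.72 ± 0.772 (SD, n = 3) and Il18 second at 8.25 ± 0.337 CPM per kb, and Il18bp had reached 3.36 ± 0.327, beside Il1a at 3.53 ± 0.0461. Il18, Il1r1, Il1r2 and Il1rn held the first 4 places in every group, and Il1b and Il1rl1 the last 2.

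Among the 9 members, the largest fold change in ΔTreg against control skin was that of an inhibitor. Il18bp, whose product binds IL-18 and keeps it from its receptor, rose 4.74-fold in ΔTreg against control skin. It lies on chromosome 7 of GRCm38 (102014885 to 102018690, minus strand). Its levels were 2.56 and 1.71 CPM in control, 2.44, 2.43 and 2.79 in ΔETreg, 2.98, 2.86 and 2.60 in ΔLTreg, with 9.30, 11.3 and 9.99 in ΔTreg skin. The ΔTreg mice lay far above all 8 other mice, which stayed within a narrow band. The log2 fold change of Il18bp in ΔTreg skin was 2.25 against control (SE 0.174, adjusted p = 1.16e-05), 1.86 against ΔLTreg (SE 0.144, adjusted p = 1.30e-05) and 2.00 against ΔETreg skin (SE 0.147, adjusted p = 4.66e-06). All 3 calls held whichever mouse was left out. In ΔLTreg skin, Il18bp had a log2 fold change of 0.39 against control (SE 0.179, adjusted p = 0.252), with all 3 mice above both control mice. Il18bp shares 80 exonic bases (2.60%) with Numa1 on the opposite strand, and whether counting used strand is not stated.

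IL-18 itself did not follow its inhibitor. Il18, on chromosome 9 (50554827 to 50581840, plus strand), ranged from 9.08 to 9.77 CPM in control, 8.05 to 11.04 in ΔETreg, 7.45 to 11.8 in ΔLTreg and 8.10 to 8.70 in ΔTreg skin. Its log2 fold change in ΔTreg against control skin was -0.15, with a 95% interval from -0.55 to 0.25, and no comparison called it. In contrast, the genes of both chains of the IL-18 receptor rose in ΔTreg skin. Il18r1, the ligand-binding chain, had 22 to 23 counts in control and 194 to 208 in ΔTreg skin (log2 fold change 3.03, SE 0.299). Il18rap, the accessory chain, had 10 to 22 counts in control and 141 to 181 in ΔTreg skin (log2 fold change 3.15, SE 0.335). Of the T cell markers, 9 of 9 were also called higher in ΔTreg against control skin (12.1% of all genes). Among them, Cd8a, Cd8b1 and Trac had at most 9 counts in every library outside the ΔTreg group. They passed the expression filter through that group alone, so this count is not independent of the filter.

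The 300 bases from 250 before to 50 after the annotated start of Il18bp, Il1b and Il1r2 are shown, because these genes gave the largest rise among inhibitors, the largest rise among the 4 cytokines and the sole called fall between mice of the same age. They are RefSeq sequence of GRCm38.p6, at chr7:102018183-102018482 (minus strand), chr2:129371090-129371389 (minus strand) and chr1:40085843-40086142 (plus strand), and capitals mark a match to TTCNNNGAA.
Il18bp promoter: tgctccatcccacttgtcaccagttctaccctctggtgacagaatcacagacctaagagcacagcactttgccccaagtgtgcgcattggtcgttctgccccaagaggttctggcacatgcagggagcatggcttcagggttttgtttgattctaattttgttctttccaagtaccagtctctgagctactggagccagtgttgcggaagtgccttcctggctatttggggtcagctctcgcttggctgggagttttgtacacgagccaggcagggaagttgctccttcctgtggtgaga
Il1b promoter: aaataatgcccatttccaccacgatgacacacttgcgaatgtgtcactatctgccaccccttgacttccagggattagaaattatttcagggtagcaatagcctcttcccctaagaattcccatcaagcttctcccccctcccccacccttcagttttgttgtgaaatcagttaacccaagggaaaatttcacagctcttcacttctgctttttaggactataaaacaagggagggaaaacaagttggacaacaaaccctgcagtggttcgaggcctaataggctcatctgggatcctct
Il1r2 promoter: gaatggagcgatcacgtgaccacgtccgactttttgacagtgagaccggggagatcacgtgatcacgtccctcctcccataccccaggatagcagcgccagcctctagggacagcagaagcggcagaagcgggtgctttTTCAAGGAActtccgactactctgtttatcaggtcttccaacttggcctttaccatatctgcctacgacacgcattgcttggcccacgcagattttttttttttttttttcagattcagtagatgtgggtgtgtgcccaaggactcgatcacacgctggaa
The interferon-γ-activated site (TTCNNNGAA), the interferon-stimulated response element (GAAA repeated after a gap of 2 bases) and the NF-κB motif (GGGA and TTCC with 2 bases between) were searched on both strands in the 14 windows held for the 9 members. The share of all 32817 promoter windows that hold them is 8.29%, 3.43% and 1.47%. The search found 1 match, TTCAAGGAA at -111 relative to the start of Il1r2. No other member held these letters in its windows, which says nothing about sites elsewhere. GENCODE M21 places the 5′ end of Il18bp and of Il1r2 upstream of the RefSeq start used here.

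Il1b, which encodes the secreted IL-1β of myeloid cells, rose 3.28-fold in ΔTreg against control skin. Its gene lies on chromosome 2 (129364570 to 129371139, minus strand) and shares 25 exonic bases with Il1bos on the opposite strand. Il1b stood at 1.09 and 0.717 CPM in control, 0.627, 0.624 and 0.771 in ΔETreg, 1.37, 1.29 and 0.783 in ΔLTreg, with 4.29, 2.61 and 2.19 in ΔTreg skin. Each ΔTreg mouse exceeded every other mouse, and the ΔTreg mice differed among themselves by more than the mice of the other groups. Il1b had a log2 fold change of 1.72 against control (SE 0.346, adjusted p = 0.00501), 1.38 against ΔLTreg (SE 0.287, adjusted p = 0.00716) and 2.15 against ΔETreg skin (SE 0.314, adjusted p = 0.000531). These values rest on 71 to 100 counts per ΔTreg library and 18 to 46 in the others. Without the second control mouse the adjusted p against control was 0.0641. Of 10 neutrophil markers, 8 were tested and all 8 were called higher in ΔTreg against control skin (12.1% of all genes). So were 6 of 11 monocyte and macrophage markers. Among the neutrophil markers, Retnlg, Mmp8, Ngp and Ltf had at most 5 counts in every library outside the ΔTreg group. They passed the expression filter through that group alone, so this count is not independent of the filter.

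Its antagonist did not move with it. Il1rn, which encodes IL-1Ra and lies on chromosome 2 (24336853 to 24351494, plus strand), ranged from 33.4 to 40.9 CPM in control, 29.95 to 37.9 in ΔETreg, 34.9 to 42.1 in ΔLTreg and 36.7 to 43.8 in ΔTreg skin. All 4 groups overlapped. The log2 fold change of Il1rn in ΔTreg against control skin was 0.09, with a 95% interval from -0.19 to 0.37 that leaves out a rise of the size seen for Il1b.

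**Figure D1:**
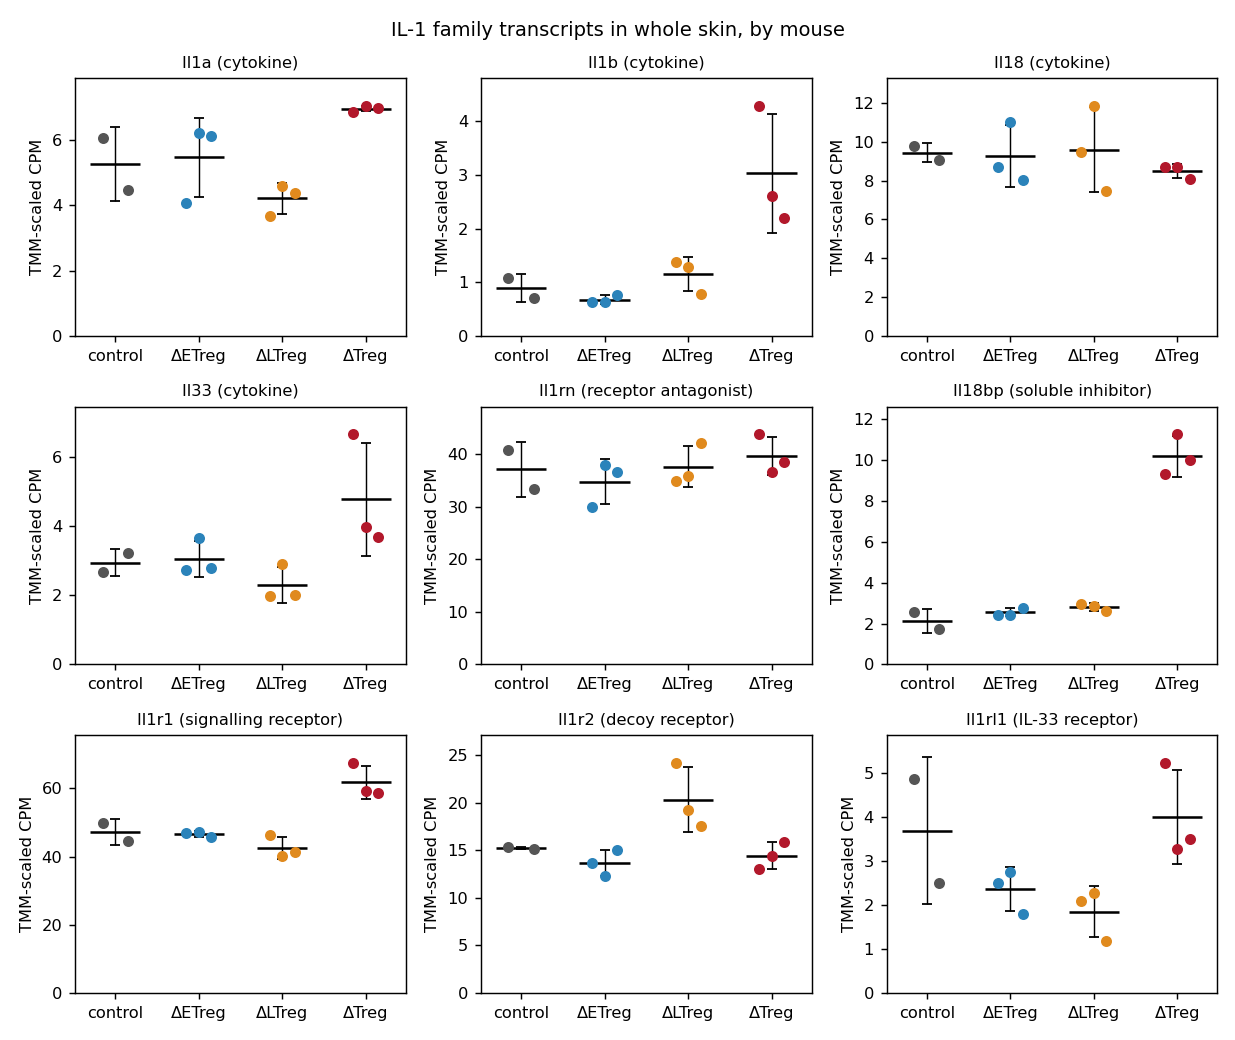
TMM-scaled CPM (vertical axes, from 0) of the 9 members in each mouse (points), with the mean (bar) and SD (whiskers) of control (n = 2), ΔETreg, ΔLTreg and ΔTreg mice (n = 3 each). Il18bp, Il1b, Il1r1, Il1a and Il33 were higher in every ΔTreg mouse than in every control mouse, and Il1rn overlapped between all groups.

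Il1r1, the gene of the signalling receptor, rose 1.31-fold in ΔTreg against control skin. It lies on chromosome 1 (40225080 to 40317257, plus strand) and had 50.01 and 44.6 CPM in control, 47.1, 47.1 and 45.7 in ΔETreg, 46.3, 40.2 and 41.2 in ΔLTreg, with 67.5, 59.2 and 58.8 in ΔTreg skin. Every ΔTreg mouse lay above the other 8 mice. Il1r1 in ΔTreg skin had a log2 fold change of 0.38 against control (SE 0.0819, adjusted p = 0.00675), 0.54 against ΔLTreg (SE 0.0727, adjusted p = 0.000515) and 0.41 against ΔETreg skin (SE 0.0726, adjusted p = 0.00204). The call against control was lost without the second control mouse (adjusted p = 0.0901). Fibroblast markers, among them Col1a1 and Pdgfrb, moved the other way against control, with 4 of 8 called lower in ΔTreg skin (9.39% of all genes). Against ΔLTreg skin none was called lower (6.11%) and 1 higher (10.7%).

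The decoy receptor gene Il1r2 (chromosome 1, 40074079 to 40125231, plus strand) had a different order of groups, with its highest levels in ΔLTreg skin. It stood at 15.3 and 15.1 CPM in control, 13.7, 12.3 and 15.04 in ΔETreg, 24.2, 19.3 and 17.6 in ΔLTreg, with 12.99, 14.4 and 15.9 in ΔTreg skin. All 3 ΔLTreg mice lay above the other 8 mice. Il1r2 was lower in ΔTreg than in ΔLTreg skin of the same age (log2 fold change -0.49, SE 0.122, adjusted p = 0.0180). It was also lower in ΔETreg than in ΔLTreg skin (log2 fold change -0.58, SE 0.123, adjusted p = 0.0219), groups that differ in harvest day as well as treatment. Between ΔLTreg and control skin the log2 fold change was 0.42 (SE 0.138, adjusted p = 0.117). With edgeR fitted to the libraries of the groups compared alone, the adjusted p was 0.0519 for ΔTreg against ΔLTreg and 0.0652 for ΔETreg against ΔLTreg skin. The first call was also lost without ΔTreg mouse 1 (adjusted p = 0.0734) or ΔTreg mouse 2 (adjusted p = 0.0573), and the second without ΔETreg mouse 1 (adjusted p = 0.0673) or ΔETreg mouse 2 (adjusted p = 0.103).

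The alarmin genes Il33 and Il1a were called higher in ΔTreg than in ΔLTreg skin, and not against control. Il33 (chromosome 19, 29925114 to 29960718, plus strand) had 2.66 and 3.23 CPM in control, 2.72, 3.65 and 2.79 in ΔETreg, 1.97, 2.90 and 2.00 in ΔLTreg, with 6.65, 3.98 and 3.68 in ΔTreg skin. Every ΔTreg mouse lay above all others, and ΔTreg mouse 1 stood well above the other ΔTreg mice. The log2 fold change of Il33 was 1.05 against ΔLTreg (SE 0.248, adjusted p = 0.0136) and 0.68 against control skin (SE 0.277, adjusted p = 0.106). Against control it was called with no filter on low counts (adjusted p = 0.0171), as it was against ΔETreg skin (adjusted p = 0.0120).

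Il1a (chromosome 2, 129299610 to 129309972, minus strand), which keratinocytes hold as an active precursor, had 6.06 and 4.46 CPM in control, 4.07, 6.21 and 6.13 in ΔETreg, 3.67, 4.59 and 4.38 in ΔLTreg, with 6.86, 7.04 and 6.99 in ΔTreg skin. The ΔTreg mice lay above all others, by a small margin over the highest ΔETreg and control mice. Il1a had a log2 fold change of 0.73 against ΔLTreg (SE 0.172, adjusted p = 0.0141) and of 0.40 against control skin (SE 0.193, adjusted p = 0.168). Without ΔLTreg mouse 1 the former had an adjusted p of 0.0504. Gm14023, a gene on the opposite strand, shares 222 exonic bases with Il1a (11.2%).

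Il1rl1, the gene of the IL-33 receptor ST2 (chromosome 1, 40429570 to 40465415, plus strand), varied widely among mice of a group. It had 4.87 and 2.51 CPM in control, 2.51, 2.76 and 1.80 in ΔETreg, 2.09, 2.27 and 1.19 in ΔLTreg, with 5.23, 3.27 and 3.49 in ΔTreg skin. The ΔTreg mice exceeded the ΔLTreg and ΔETreg mice and overlapped with the control mice. Against ΔLTreg skin the log2 fold change was 1.11 (SE 0.310, adjusted p = 0.0319), and the call was lost without ΔLTreg mouse 3 (0.0816) or any 1 of ΔLTreg mouse 1 (0.0516), ΔTreg mouse 1 (0.126) and ΔTreg mouse 3 (0.0537), each value being the adjusted p. Against ΔETreg skin it was 0.74 (SE 0.304, adjusted p = 0.109), and was called with DESeq2 (adjusted p = 0.0216), with edgeR on those groups alone (adjusted p = 0.0400) and with no filter (adjusted p = 0.00583). Between ΔLTreg and control skin it was -1.01 (SE 0.343, adjusted p = 0.125). Mast cells and Tregs are known to carry ST2. Summed CPM of the 8 mast cell markers was 143 to 151 in control, 105 to 126 in ΔETreg, 55.9 to 127 in ΔLTreg and 128 to 159 in ΔTreg skin, and 1 of the 8, Hdc, was called higher in ΔTreg skin, both against control and against ΔLTreg skin. The 10 Treg markers summed to 19.5 to 21.8, 20.7 to 23.7, 25.4 to 29.3 and 42.4 to 50.6 CPM in the same order. Of these, 7 of 10 were called higher in ΔTreg against ΔLTreg skin (10.7% of all genes). The list includes Tigit, which had at most 2 counts in every library outside the ΔTreg group. Tigit passed the expression filter through that group alone, so this count is not independent of the filter. Foxp3 did not rise, with means of 0.629 CPM in control, 0.534 in ΔLTreg and 0.502 in ΔTreg skin. Most of the sum in ΔTreg skin came from Tnfrsf18 (mean 18.5 CPM) and Ikzf2 (mean 11.1 CPM), so the sum does not count Tregs. The part of either list in the Il1rl1 result was not tested.

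Counted together, 3 of the 9 members were called higher in ΔTreg against control skin (Il18bp, Il1b and Il1r1) and none lower, where 12.1% of all genes tested were called higher, 9.39% lower and 21.5% in either direction. The groups did not overlap for 6 members, beside 52.5% of all genes. The median log2 fold change of the members was 0.38, against -0.01 over all genes. Against ΔLTreg skin, 6 members were called higher in ΔTreg skin (Il18bp, Il1b, Il1r1, Il33, Il1a and Il1rl1) and 1 lower (Il1r2), where 10.7% and 6.11% of genes were called (16.8% in either direction). There 7 members did not overlap, beside 35.9% of all genes, and the median was 0.73. Against ΔETreg skin, which was harvested 4 days earlier, the same 3 genes as against control were called higher and none lower (4 with DESeq2 or with edgeR on those groups alone, adding Il1rl1, and 5 with no filter, adding Il1rl1 and Il33), where 13.2% of genes were called higher, 9.81% lower and 23.1% in either direction. The median was 0.41, and 6 members did not overlap, beside 45.1% of all genes.

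The 2-dose groups gave few calls. In ΔETreg against control skin, edgeR called 0 of 9 members (0.00544% of all genes), 0 had an unadjusted p under 0.05, and DESeq2's Wald test called 0. The groups did not overlap for 1 member, Il1r2, which was lower in ΔETreg skin, beside 19.7% of all genes. Log2 fold changes lay between -0.64 for Il1rl1 and 0.24 for Il18bp, with wide 95% intervals at low counts, from -1.31 to 0.43 for Il1b. In ΔLTreg against control skin, edgeR called 0 of 9 members (4.55% of all genes, 1.86% higher and 2.69% lower), 2 had an unadjusted p under 0.05 (Il1r2, higher, and Il1rl1, lower), and DESeq2 called 0, whereas both were called with no filter on low counts (adjusted p = 0.0177 and 0.00114). There 3 members did not overlap (Il1r2, Il18bp and Il1rl1), beside 32.2% of all genes. In ΔETreg against ΔLTreg skin, 1 member was called, Il1r2, which was lower (6.38% of all genes, 3.27% higher and 3.12% lower), and 2 did not overlap, beside 26.3% of all genes. For Il1b, all 3 ΔETreg mice lay below all 3 ΔLTreg mice, with a log2 fold change of -0.77 (SE 0.342, adjusted p = 0.209). ΔETreg and ΔLTreg mice also differed in harvest day.

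**Figure D2:**
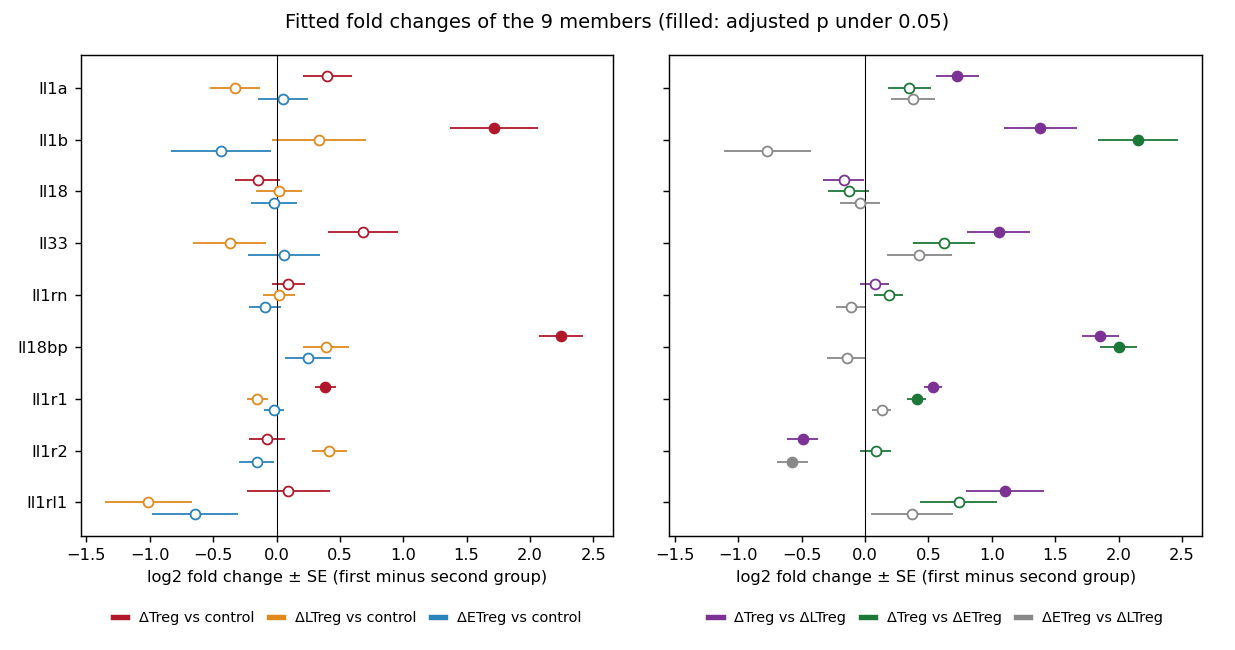
Log2 fold change (horizontal axis, first minus second group) with its standard error (bars) for the 9 members in 6 comparisons, filled where the adjusted p was under 0.05. In ΔTreg skin, Il18bp and Il1b lay to the right of 1 in all 3 comparisons, and Il1r2 lay to the left of 0 against ΔLTreg skin.

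Because the inhibitors and the decoy did not move in step with their partners, their ratio was taken in each mouse as log2 of the CPM values with 0.5 added to each. These ratios are formed from the same values as the fold changes above and add no independent support to them. Gene length would cancel from a difference of such ratios between groups but for the added 0.5 CPM. This addition draws the ratio in most where levels are low, as for Il1b at 0.62 to 1.37 CPM outside the ΔTreg group. The log2 ratio of Il1rn to Il1b was 4.71 and 4.80 in control, 4.76, 5.09 and 4.87 in ΔETreg, 4.24, 4.34 and 5.05 in ΔLTreg, with 3.21, 3.58 and 3.86 in ΔTreg skin. All ΔTreg mice lay below every other mouse, with a mean difference of -1.20 from control and -0.997 from ΔLTreg skin.

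The log2 ratio of Il18bp to Il18 moved the other way. It was -1.75 and -2.11 in control, -1.65, -1.98 and -1.38 in ΔETreg, -1.52, -1.88 and -1.36 in ΔLTreg, with 0.09, 0.35 and 0.29 in ΔTreg skin. The mean difference in ΔTreg skin was 2.18 from control and 1.83 from ΔLTreg skin. The log2 ratio of the decoy Il1r2 to Il1r1 separated the mice of the same age, with -0.92, -1.04 and -1.21 in ΔLTreg against -2.33, -2.00 and -1.85 in ΔTreg skin, on either side of -1.67 and -1.53 in control skin. Its mean difference between ΔTreg and ΔLTreg skin was -1.004. For each of these 5 differences the two-sided exact permutation test gave p = 0.1 (adjusted p = 0.2 over 18 tests), and 3 mice against 2 or 3 cannot give a p below 0.1.

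**Figure D3:**
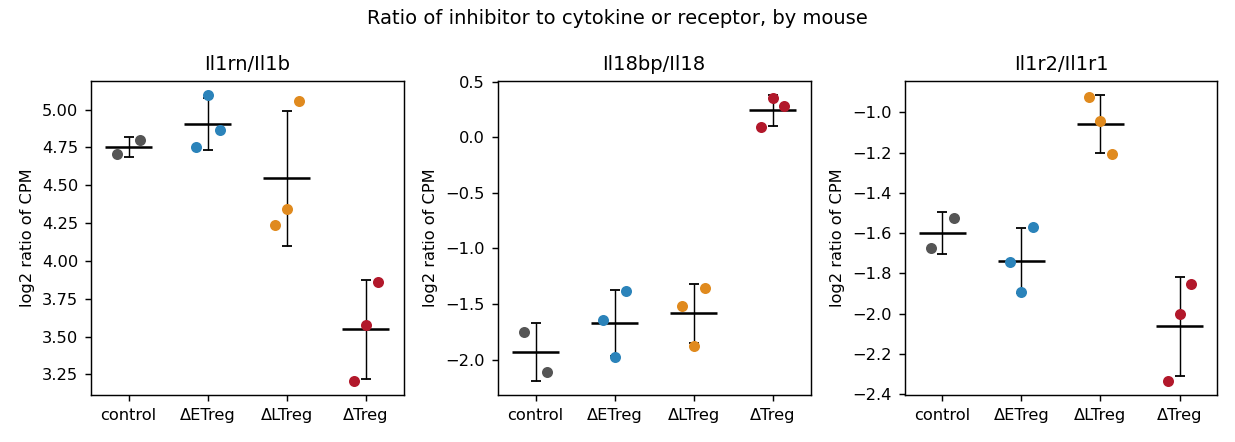
Log2 ratio of CPM (vertical axes) of Il1rn to Il1b, Il18bp to Il18 and Il1r2 to Il1r1 in each mouse (points), with group mean (bar) and SD (whiskers), for control (n = 2) and the 3 depleted groups (n = 3 each). ΔTreg mice were lowest for Il1rn to Il1b (3.21 to 3.86) and highest for Il18bp to Il18 (0.09 to 0.35).

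The other genes of the family and pathway were examined in 4 lists. Of all genes, 12.1% were called higher and 9.39% lower in ΔTreg against control skin. Of 10 other family genes, 4 were called higher and 2 lower there, with a median log2 fold change of 0.41 (-0.01 over all genes). Besides the IL-18 receptor genes, Il1rl2, the IL-36 receptor, had a log2 fold change of 0.38 (SE 0.0663), and Il1f5, the IL-36 receptor antagonist, of -0.52 (SE 0.132). Il1f9 and Il1f8, which encode IL-36 cytokines, were the other genes called, with log2 fold changes of 0.56 (SE 0.162) and -0.55 (SE 0.165). In ΔLTreg skin 2 of the 10 fell against control (2.69% of all genes), Il1f8 and a further IL-36 cytokine gene, Il1f6. Il1f6 had 21 and 22 counts in control, 15, 21 and 10 in ΔETreg, 1, 7 and 5 in ΔLTreg, with 19, 26 and 33 in ΔTreg skin. Il1f8 had 82 and 63 counts in control, 71, 75 and 64 in ΔETreg, 31, 26 and 30 in ΔLTreg, with 45, 69 and 50 in ΔTreg skin. The log2 fold change in ΔLTreg against control skin was -2.44 for Il1f6 (SE 0.484, adjusted p = 0.0195) and -1.49 for Il1f8 (SE 0.175, adjusted p = 0.00144), and both were called higher in ΔTreg than in ΔLTreg skin (log2 fold changes 2.56 and 0.94).

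Of 10 inflammasome genes, 7 were called higher (12.1% of all genes) and none lower (9.39%) in ΔTreg against control skin. Their median log2 fold change was 1.48. The list includes Nlrp1a, not called against control, which had at most 9 counts in every library outside the ΔTreg group. Nlrp1a passed the expression filter through that group alone, so this median is not independent of the filter. Casp1, which cleaves pro-IL-1β and pro-IL-18, had 95 to 100 counts in control and 393 to 448 in ΔTreg skin (log2 fold change 1.98, SE 0.218). Casp4 encodes the murine non-canonical inflammasome caspase and rose most in the list, with 31 to 32 counts in control, 64 to 85 in ΔLTreg and 278 to 377 in ΔTreg skin. Its log2 fold change against control was 3.21 in ΔTreg (SE 0.265) and 1.13 in ΔLTreg skin (SE 0.275, adjusted p = 0.0435). Gsdmd, the pore through which IL-1β leaves the cell, had a log2 fold change of 1.58 (SE 0.279), and the adaptor gene Pycard of 0.43 (SE 0.101). In ΔETreg against control skin edgeR called none of the 10 (0.00544% of all genes).

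Of 18 signalling genes, 9 were called higher (12.1% of all genes) and none lower (9.39%) in ΔTreg against control skin. Their median log2 fold change was 0.22. Nfkb2 and Relb, subunits of the non-canonical NF-κB pathway, had log2 fold changes of 0.91 (SE 0.0716) and 1.05 (SE 0.108). The NF-κB inhibitor Tnfaip3 had 0.86 (SE 0.0785) and the receptor adaptor Myd88 had 0.60 (SE 0.0779).

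Of 12 response genes, 10 were tested and 9 of these were called higher in ΔTreg against control skin (12.1% of all genes), with a median of 3.23. Il6, Cxcl2, Cxcl5 and Ifng had at most 3 counts in either control library, so their fitted values and this median depend on the prior count. Il6, Cxcl5 and Ifng had at most 4 counts in every library outside the ΔTreg group. They passed the expression filter through that group alone, so this count and median are not independent of the filter. Nos2, inducible nitric oxide synthase, had 38 to 44 counts in control and 287 to 664 in ΔTreg skin, and the acute-phase gene Saa3 had 6 to 11 and 112 to 144. In ΔLTreg skin Saa3 had 25 to 48 counts (log2 fold change 1.96 against control, SE 0.402, adjusted p = 0.0225). The other response gene called there, the chemokine gene Ccl20, had 65 to 92 counts (log2 fold change 1.70, SE 0.361, adjusted p = 0.0261). Mean Ccl20 was 2.48 CPM in ΔLTreg and 2.09 in ΔTreg skin. Lcn2, a neutrophil and keratinocyte siderophore-binding protein, had a log2 fold change of 3.15 (SE 0.388) in ΔTreg against control skin. Il6 was at 1 to 2 counts in control and 17 to 31 in ΔTreg skin. Other cytokines than those of the IL-1 family also induce these genes. Against ΔLTreg skin, 10.7% of all genes were called higher in ΔTreg skin and 6.11% lower. Called higher there were 6 of 10 other family, 8 of 10 inflammasome, 7 of 18 signalling and 6 of 10 response genes. None of these lists had a gene called lower.

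**Figure D4:**
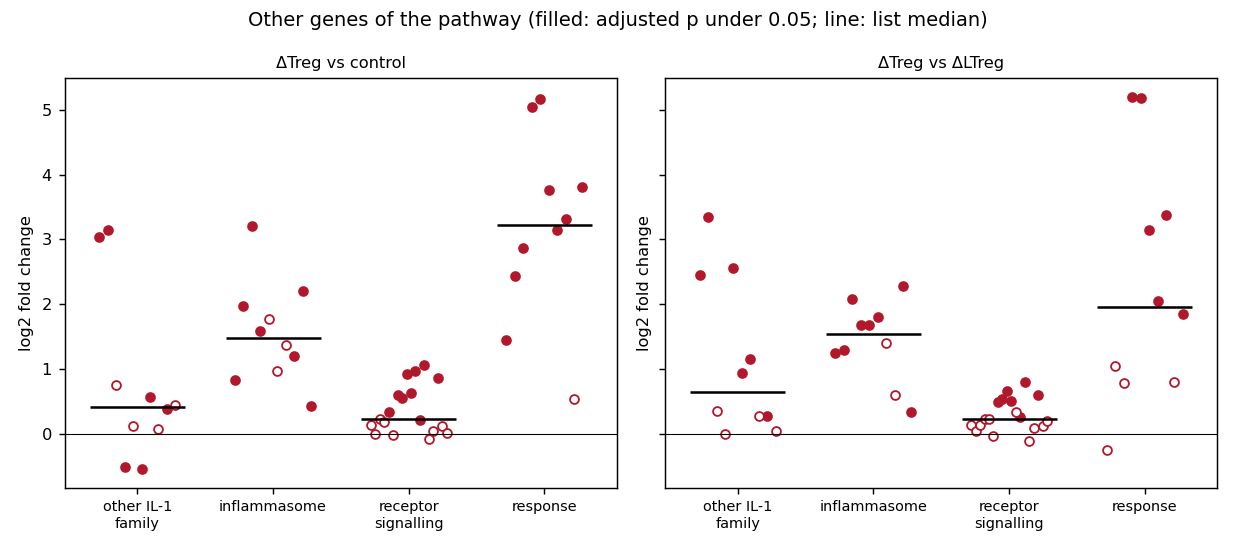
Log2 fold change (vertical axis) of each tested gene of 4 lists (points, filled where the adjusted p was under 0.05) with the list median (line), for ΔTreg against control skin (left) and against ΔLTreg skin (right). The response and inflammasome lists have medians of 3.23 and 1.48 against control skin, and the signalling list of 0.22. The response list includes Il6, Cxcl5 and Ifng, and the inflammasome list Nlrp1a, which passed the expression filter through the ΔTreg group alone.

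Across the 11 libraries, the genes whose log2 CPM was most like that of a member were listed, among 13896 other genes with a mean of at least 50 counts. For Il18bp these were Rgs4, Cp and Tap1 (Pearson r = 0.99 each), and for Il1b they were H2-DMb1, Usb1 and Clec7a (r = 0.98, 0.98 and 0.97, among 13897). For Il1r1 they were Tnfaip6, Il6st and Il7r (r = 0.97, 0.97 and 0.96), and for Il1a Klf4, Maff and Ccbe1 (r = 0.97, 0.96 and 0.95). For the other 5 members the 3 most similar genes had r between 0.85 and 0.95. These values describe libraries that share groups and batch, and they carry no test.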

How the data were processed

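Whole skin RNA of 11 mice was sequenced by paired-end reads. The authors used Trimmomatic 0.36 for trimming, STAR 2.5.2b for mapping to GRCm38 and featureCounts (Subread 1.5.2) for counting unique exonic reads. The deposited values are raw counts for 49315 genes, not normalized. Strand setting and annotation release are not given in the sources used here. Groups came from the treatment label, replicates were numbered in accession order, and all labels give batch 1.

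Genes were filtered with filterByExpr, scaled by TMM and fitted with 1 mean per group in edgeR 4.0.16 (R 4.3.3), using its quasi-likelihood test, and p-values were adjusted by Benjamini-Hochberg over 18375 genes. Standard errors (SE) are the log2 fold change over the square root of F, and 95% intervals use the degrees of freedom of the fit. The code was tested on simulated data. The alternatives were DESeq2 1.42.0 (the Wald test the study used), edgeR on the 2 groups only, DESeq2 size factors, no filter, and each mouse left out. Ratios used a pseudocount of 0.5 CPM, with 1 CPM and plain library size as alternatives. Coordinates and exonic lengths come from GENCODE M21 (GRCm38), promoters from RefSeq (GRCm38.p6), where all 9 members matched.

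The members and lists were chosen with earlier results of these data known. Named were all 9 members, up to 4 genes of smallest p per list in ΔTreg against control skin, any gene called in ΔETreg skin, and the 3 genes most like each member. Outside this rule, Foxp3, Ly6g, Il1f6, Il1f8, Il1f9, Ccl20, Cxcl2, Cxcl5, Ifng, Ikzf2, Tigit, Nlrp1a and S100a8 were named with their values known. Itgam was left out of the macrophage list because 2 rows carry its name. The remaining marker lists gave, in ΔTreg against control skin, 7 of 10 Treg markers called higher (Icos, Tnfrsf18, Tnfrsf4 and Il2ra among them) and, of 8 keratinocyte markers, 2 higher (Dsg3 and Krt14) and 2 lower (Krt1 and Krt10). Of all genes, 12.1% were called higher there and 9.39% lower. The Treg list includes Tigit, which passed the expression filter through the ΔTreg group alone, so its count is not independent of the filter. Mean Foxp3 was 0.629 CPM in control and 0.502 in ΔTreg skin. P-values measure the spread between mice, and counting floors of 3 counts cover counting error only.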

Additional observations from a re-analysis of the deposited data

How the results depend on the processing

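Il18bp kept its direction and its 3 calls in ΔTreg skin under every alternative run. With edgeR on the 2 groups only, the members called were 0 in ΔETreg against ΔLTreg, 6 in ΔTreg against ΔLTreg and 4 in ΔTreg against ΔETreg skin. With no filter on low counts they were 4 in ΔTreg against control, 2 in ΔLTreg against control (Il1r2 and Il1rl1) and 5 in ΔTreg against ΔETreg skin, and with DESeq2 4 in the last. Other whole-data settings left the number of members called as it was. With 1 mouse left out, the members called ranged from 1 to 3 in ΔTreg against control (1 without the second control mouse, when the number of genes called fell to 2026) and from 0 to 1 in ΔETreg against ΔLTreg skin. The number of all genes called in ΔETreg against control skin was 19 with DESeq2's Wald test, 0 with edgeR on the 2 groups only, 54 with no filter and 0 to 7 with 1 mouse left out. In ΔLTreg against control skin it was 154 on the 2 groups only, 1790 with no filter and 292 to 903 with 1 mouse left out. In ΔETreg against ΔLTreg skin it was 540, 2173 and 353 to 1248, and in ΔTreg skin 2026 to 4520 against control and 1987 to 3385 against ΔLTreg skin with 1 mouse left out. With 1 mouse left out, log2 fold changes that were not called took both signs. In ΔETreg against control skin they ranged from -0.23 to 0.060 (Il1rn), -0.10 to 0.064 (Il1r1), -0.17 to 0.067 (Il18), -0.10 to 0.20 (Il33), -0.15 to 0.29 (Il1a) and -0.0082 to 0.57 (Il18bp). In ΔTreg against control skin they ranged from -0.051 to 0.25 (Il1rn) and -0.30 to 0.65 (Il1rl1), and in ΔLTreg against control skin from -0.12 to 0.17 (Il1rn) and -0.15 to 0.17 (Il18). Il1rn in ΔTreg against ΔLTreg skin ranged from -0.0048 to 0.17. Il18 ranged from -0.32 to 0.00029 in ΔTreg against ΔLTreg, -0.22 to 0.019 in ΔTreg against ΔETreg and -0.19 to 0.13 in ΔETreg against ΔLTreg skin, where the log2 ratio of Il18bp to Il18 ranged from -0.23 to 0.071. The other calls that 1 mouse decided are given beside their genes, and the cause of these shifts was not tested. No paired analysis was possible because the labels give no replicate numbers that groups share, and mice were numbered in accession order. Depth limits Il1b most, at 18 to 46 counts in 8 of 11 libraries.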
